A study of Mus musculus with 24 samples.

Results

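Basement membrane collagens and nidogens were measured in endothelial cells sorted from aorta and from skeletal muscle of mice fed chow or a high-fat diet, with 24 Agilent arrays of 1 colour that cover the mouse genome. The members were the 6 type IV collagen chains (Col4a1 to Col4a6), the multiplexin collagens Col15a1 and Col18a1, and the nidogens Nid1 and Nid2. They were chosen by name, as every non-control probe whose accession maps to 1 of these genes, which found 17 of the 41174 probes and 10 of the 18539 gene symbols on the array. Col4a4, Col4a5, Nid1 and Nid2 had 1 probe each, Col4a6 had 3, and the other 5 members had 2 each. Where a gene had several probes, values are those of the probe brightest in the tissue, and other probes are named where they bear on a result.

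The study compared male C57BL/6 wild-type mice (WT) with mice homozygous for a targeted deletion in Lgals3, the galectin-3 gene, on the same background (KO). From 8 weeks of age the mice ate a high-fat diet (HFD, 60% of calories from fat) or chow (12%) for 8 weeks. Aortae and leg muscles were dispersed with collagenase, and live cells positive for CD105 and negative for CD45 were sorted from each pool of 3 mice (the deposited notes say 3 to 4) and their RNA amplified, so that every array stands for pooled mice. Each of the 8 groups of tissue, strain and diet had 3 arrays, from experiments 1, 2 and 3, and all groups share the sort, the digestion and the amplification. Levels are log2 signals relative to the 75th percentile of the array, so that a level of 0 equals that percentile, and because each probe binds with its own strength no probe's level was set against another's.

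Basement membranes are thin sheets of matrix beneath endothelium and around muscle fibres, smooth muscle cells and fat cells. Type IV collagen chains join in heterotrimers that polymerise into a covalent network, laminins form a second network, and nidogens bridge them. The chains encoded by Col4a1 and Col4a2 make the trimer found in nearly all basement membranes, whereas the chains encoded by Col4a3, Col4a4, Col4a5 and Col4a6 make trimers with a narrower distribution, such as those of the glomerulus and of some smooth muscle. Type XV and type XVIII collagens are proteoglycans that lie at the border between basement membrane and interstitial matrix, and the carboxyl terminus of the latter is released as endostatin. Thickening of the capillary basement membrane is a classic feature of diabetic microvascular disease.

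The type IV collagen genes lie as head-to-head pairs that are transcribed away from each other: Col4a1 and Col4a2 on chromosome 8, Col4a3 and Col4a4 on chromosome 1, and Col4a5 and Col4a6 on chromosome X. In the RefSeq annotation of GRCm38.p6, Col4a5 spans chrX:141475370-141689236 and Col4a6 chrX:141165403-141474095, Col15a1 spans chr4:47207655-47313167 and Col18a1 chr10:77052178-77166530. Promoters were available for 8 of the 10 members, and the 250 bases before the start are shown for the multiplexins, which carry the diet result below, and for the Col4a5 and Col4a6 pair, since Col4a5 and 2 of the 3 Col4a6 probes differed more between the tissues than any other member probe. Capitals mark CCAAT or GGGCGG on either strand.
Col15a1, chr4:47207762-47208011, plus strand: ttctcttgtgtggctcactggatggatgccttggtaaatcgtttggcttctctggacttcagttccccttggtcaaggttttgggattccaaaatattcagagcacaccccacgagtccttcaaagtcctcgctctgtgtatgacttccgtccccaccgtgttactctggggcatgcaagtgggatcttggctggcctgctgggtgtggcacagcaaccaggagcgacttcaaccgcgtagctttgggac
Col18a1, chr10:77166531-77166780, minus strand: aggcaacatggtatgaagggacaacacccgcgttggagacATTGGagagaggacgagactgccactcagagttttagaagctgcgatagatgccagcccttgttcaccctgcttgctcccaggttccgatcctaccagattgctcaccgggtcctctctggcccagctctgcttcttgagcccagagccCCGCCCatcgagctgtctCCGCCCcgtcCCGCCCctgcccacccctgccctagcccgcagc
Col4a5, chrX:141475169-141475418, plus strand: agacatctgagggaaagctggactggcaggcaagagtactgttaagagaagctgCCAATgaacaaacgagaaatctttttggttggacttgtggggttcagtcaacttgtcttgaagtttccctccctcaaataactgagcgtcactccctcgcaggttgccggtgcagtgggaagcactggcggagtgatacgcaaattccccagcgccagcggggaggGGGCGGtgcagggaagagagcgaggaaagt
Col4a6, chrX:141474077-141474326, minus strand: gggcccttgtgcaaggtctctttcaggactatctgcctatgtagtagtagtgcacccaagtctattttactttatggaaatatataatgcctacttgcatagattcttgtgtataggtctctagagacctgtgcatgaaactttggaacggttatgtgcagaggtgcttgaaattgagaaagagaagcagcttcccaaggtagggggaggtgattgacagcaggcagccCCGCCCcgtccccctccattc
No TATAAA was found in any of these windows, a sequence that 12.4% of 32851 RefSeq promoter windows of this length hold, while CCAAT is held by 33.8% of them and GGGCGG by 32.7%. The Col18a1 window shown held 1 CCAAT and 3 GGGCGG, the Col4a5 window 1 of each, the Col4a6 window 1 GGGCGG and the Col15a1 window neither. A second Col18a1 window, chr10:77113706-77113955, is not shown and also held neither. The Col15a1 window lies inside the annotated span of the gene, which also has an earlier start. The ends of the Col4a5 and Col4a6 windows likewise reach into the annotated spans of their genes, and the GGGCGG of Col4a5 lies in that part. Of the other pair, the window of Col4a1 held 1 CCAAT and that of Col4a2 1 CCAAT and 2 GGGCGG, and each lies within the annotated span of its neighbour. A match of this kind describes the letters of the window and is not evidence of a bound factor.

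Some properties of the whole series bear on every value. On each array 59.5% to 75.7% of non-control spots stood well above background, and none was saturated. The 12 endothelial markers were well above background on all 24 arrays, with a list mean of 4.29 to 4.72 in muscle and 1.96 to 4.05 in aorta. Ptprc, which encodes CD45, was nevertheless well above background on 10 of 12 arrays of each tissue. In 11 of 12 pairs the array labelled KO had the higher Lgals3 signal (1.28 ± 1.19, SD, n = 12 pairs), and since the place of the probe relative to the deletion is not known here this does not check the labels. On 33 probes that separated the labelled strains in experiments 2 and 3, of which 32 were read, the chow arrays of experiment 1 lay at their own strain (0.0195 and 0.0747 for WT, 1.02 and 0.907 for KO, where 0 is the WT and 1 the KO level), but the 4 HFD arrays of that experiment lay between 0.199 and 0.453, whatever their label. Strain comparisons that include experiment 1 are therefore of arrays labelled KO and WT. Values without it are given beside the strain differences of single members, but not beside counts of members. In bulk RNA of sorted cells, fewer cells of a type and less RNA per cell cannot be told apart.

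Col15a1, which encodes a proteoglycan core protein that links the basement membrane to interstitial fibrils, rose on HFD in muscle endothelium and was the only member called in a comparison of diets. In muscle its levels on chow were -0.76, -1.43 and -1.02 in WT and -0.99, -1.05 and -1.08 in KO for experiments 1, 2 and 3. On HFD they were 1.70, 1.24 and 1.25 in WT and 1.68, 1.72 and 1.09 in KO. All 6 HFD arrays lay above all 6 chow arrays, with a wide gap, in both strains. Such a separation held for 1 of the 10 members and for 1% of the probes read on all muscle arrays. The mean response of both strains was 2.50 ± 0.16 (SE), a 5.67-fold rise, with an adjusted p of 0.016 by limma with Benjamini-Hochberg adjustment over 25682 probes, of which 0.288% were called and 0.167% were called as higher on HFD.

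The rise of Col15a1 in muscle was of like size in every pair, between 2.16 and 2.77 in 6 of 6. Taken strain by strain it was 2.47 in WT (adjusted p = 0.082) and 2.54 in KO (adjusted p = 0.14), neither past the threshold in limma, where 0% and 0.00389% of all probes were called and 12.1% and 8.49% had an unadjusted p under 0.05. Without the pairing of HFD and chow arrays both strains passed (adjusted p = 0.046 in WT and 0.018 in KO). The second Col15a1 probe, dim on chow and well above background on only 2 of 6 chow arrays, gave 2.33 ± 0.42 (SE, adjusted p = 0.098). On it every HFD array again lay above every chow array, but narrowly (-6.09 against -6.20). Of its 3 KO HFD arrays 2 were well above background. The call on the mean was lost when experiment 1 (2.47, adjusted p = 0.26), experiment 2 (2.39, adjusted p = 0.27) or experiment 3 (2.65, adjusted p = 0.17) was left out, each of which left 8 arrays and no called probe on the whole array.

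In aorta the levels of Col15a1 on chow were more scattered: 1.95, -0.71 and 1.74 in WT and -0.71, 0.35 and -0.17 in KO. On HFD they were 3.09, 3.06 and 2.05 in WT and 3.15, 3.01 and 2.36 in KO. Again all 6 HFD arrays lay above all 6 chow arrays, which 0.615% of the probes read on all aorta arrays did, and the chow arrays spread widely while the HFD arrays did not. The mean response was 2.38 ± 0.46 (SE, unadjusted p = 0.0016), which did not pass the adjusted threshold (adjusted p = 0.14 by limma, with 0.0309% of 25865 probes called). It was 1.74 ± 0.66 in WT and 3.02 ± 0.66 in KO (SE), and 2.32 without experiment 1 (adjusted p = 0.34). The 6 single responses ran from 0.31 to 3.86, the lowest being that of WT in experiment 3. The second probe, well above background on 9 of 12 aorta arrays, gave 2.53 ± 0.67 (SE). On it the diets overlapped, with chow levels up to -3.50 and HFD levels down to -4.22.

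Differences between the responses of Col15a1 were not called, and their errors were wide in aorta. KO minus WT of the response was 1.28 ± 0.93 in aorta and 0.07 ± 0.31 in muscle, and aorta minus muscle was -0.12 ± 0.53 (SE, adjusted p = 1, 1 and 0.97). Without experiment 1 the strain difference was 0.55 in aorta and -0.0053 in muscle, and without experiment 3 the last of the 3 values turned to 0.21. No probe of the array was called in any of these 3 comparisons of responses (unadjusted p under 0.05 for 2.62%, 4.12% and 9.24% of probes).

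**Figure D1:**
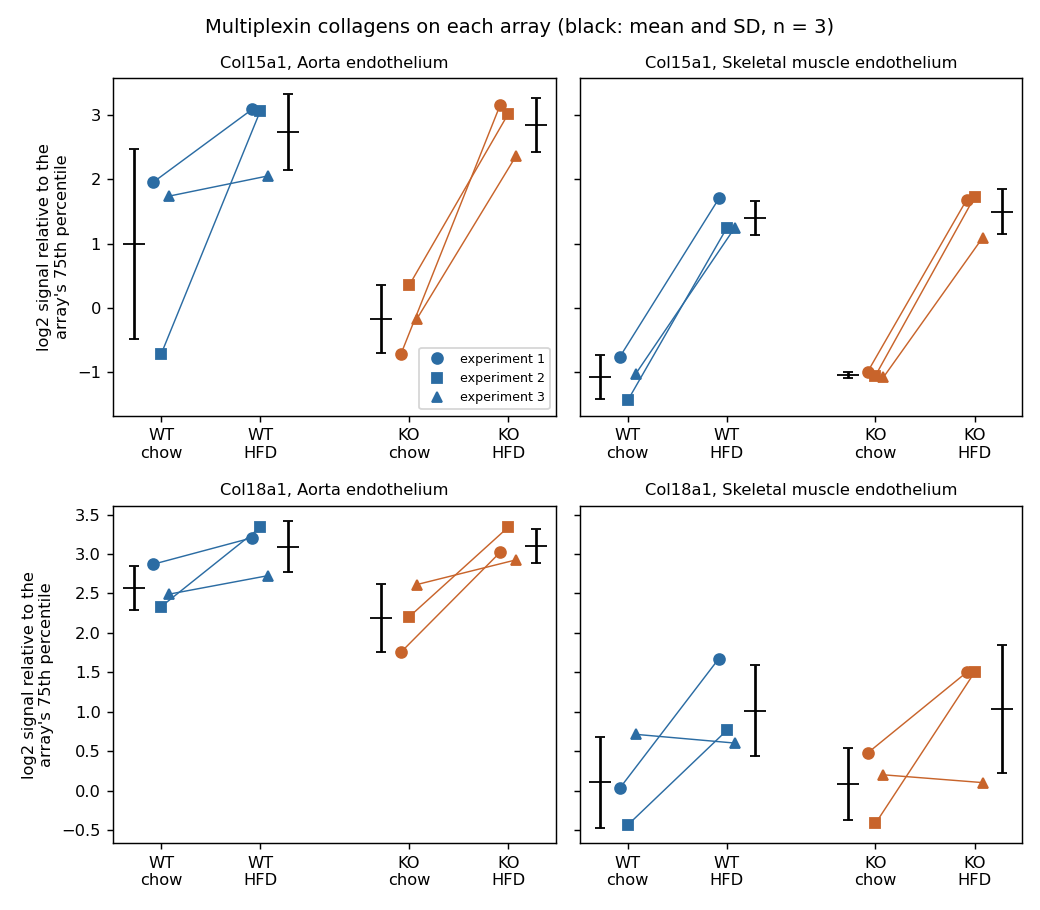
Log2 signal of Col15a1 (top) and Col18a1 (bottom) on each array, relative to the array's 75th percentile, in aorta (left) and muscle (right), with lines joining the chow and HFD array of 1 strain and experiment and black marks for the mean and SD of 3 arrays. For Col15a1 every HFD array lies above every chow array of the tissue, between 1.09 and 1.72 against -1.43 to -0.76 in muscle, while the chow and HFD arrays of Col18a1 overlap.

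Col18a1, the source of endostatin, was higher in aorta than in muscle and responded to the diet more weakly than it differed between the tissues. In aorta its levels on chow were 2.87, 2.33 and 2.49 in WT and 1.76, 2.20 and 2.61 in KO. On HFD they were 3.21, 3.34 and 2.73 in WT and 3.02, 3.34 and 2.93 in KO. The HFD array was the higher in all 6 pairs, as for 5.85% of probes, but the groups overlapped because the WT chow array of experiment 1 lay above the WT HFD array of experiment 3. The mean response was 0.72 ± 0.22 (SE, adjusted p = 0.24).

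In muscle the levels of Col18a1 on chow were 0.03, -0.44 and 0.71 in WT and 0.48, -0.42 and 0.20 in KO. On HFD they were 1.68, 0.76 and 0.60 in WT and 1.50, 1.50 and 0.10 in KO. The groups overlapped, since both pairs of experiment 3 had the lower value on HFD. The response was 0.93 ± 0.33 (SE, adjusted p = 0.24), above 0 in 4 of 6 pairs. The second Col18a1 probe, well above background on every array, was above 0 in 6 of 6 muscle pairs, with a response of 0.88 ± 0.28 (SE, adjusted p = 0.21), and in aorta its response was 0.65 ± 0.24 (SE, adjusted p = 0.29).

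Of the type IV chains, Col4a5 and Col4a6 on 2 of its 3 probes had the largest responses to HFD in aorta, and none passed the adjusted threshold there. Col4a5, whose chain is built into trimers with other type IV chains, had levels of -1.17, -2.71 and -0.10 in WT chow and of -3.46, -2.81 and -1.78 in KO chow. On HFD they were -0.59, -0.48 and -0.84 in WT and -0.83, -0.37 and -0.36 in KO. The HFD arrays clustered within a narrow range, whereas the chow arrays were scattered, the KO arrays being the lowest except that 1 WT array lay among them. The response was 0.69 ± 1.49 in WT (SD, n = 3) and 2.17 ± 0.65 in KO, with a mean of 1.43 ± 0.40 (SE, adjusted p = 0.22).

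Col4a6, the partner of Col4a5 in the chain pair that lies around smooth muscle, followed it on the probe brightest in aorta. Its levels on chow were 3.70, 1.46 and 3.19 in WT and 1.23, 2.60 and 1.84 in KO. On HFD they were 4.21, 4.37 and 2.80 in WT and 4.08, 4.21 and 3.19 in KO. As for Col4a5, the KO pairs all had the higher value on HFD and 1 WT pair, that of experiment 3, did not. The mean response was 1.47 ± 0.45 (SE, adjusted p = 0.25). Of the other Col4a6 probes, A_51_P109326 gave 1.82 ± 0.56 (SE, adjusted p = 0.24), above 0 in 4 of 6 pairs, and A_52_P447196, the brightest in muscle, a smaller 0.48 ± 0.21 (SE, adjusted p = 0.35), above 0 in 6 of 6.

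Col4a3, a chain of the glomerular type of trimer, was dim in both tissues. In aorta it had levels of -3.00, -2.74 and -3.29 in WT chow, -3.07, -2.48 and -2.45 in WT HFD, -3.18, -4.10 and -3.38 in KO chow and -2.82, -1.83 and -1.49 in KO HFD. Over both strains the chow levels (-4.10 to -2.74) and the HFD levels (-3.07 to -1.49) overlapped. The responses were 0.34 ± 0.46 in WT and 1.51 ± 1.02 in KO (SD, n = 3), with a mean of 0.93 ± 0.30 (SE, adjusted p = 0.26). In muscle its response was -0.18 ± 0.34 (SE, adjusted p = 0.82).

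The pattern of a larger response on the arrays labelled KO in aorta was tested directly for these chains and was not called. KO minus WT of the response was 1.17 ± 0.59 for Col4a3 and 1.48 ± 0.80 for Col4a5 (SE, adjusted p = 1 for both, limma, with 0% of probes called), and 1.53 and 1.19 without experiment 1. With experiment 1 included, 7 of the 10 members had a difference above 0, against 47.7% of all probes. Aorta minus muscle of the response to HFD was 1.10 ± 0.48 for Col4a3 (SE, adjusted p = 0.52), in a comparison where no probe was called. For Col4a5, not well above background on 10 of 12 muscle arrays and not tested in that tissue, no difference between the responses of the tissues is given.

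The chains of the common trimer were not called for the diet, and the probes of Col4a1 differed in the size of the response. On the brighter probe Col4a1 had chow levels in muscle of 5.82, 6.07 and 5.82 in WT and 6.11, 6.03 and 5.80 in KO, and HFD levels of 6.19, 6.27 and 5.99 in WT and 6.24, 6.57 and 6.08 in KO. The HFD array was the higher in 6 of 6 pairs, as for 5.63% of probes, although the groups overlapped. The response was 0.28 ± 0.14 in muscle (adjusted p = 0.38) and 0.23 ± 0.21 in aorta (SE, adjusted p = 0.62). The second Col4a1 probe (A_52_P518827), also well above background on every array, gave larger values of 0.51 ± 0.18 in muscle (adjusted p = 0.23, above 0 in 6 of 6 pairs) and 1.06 ± 0.36 in aorta (SE, adjusted p = 0.27, above 0 in 5 of 6), with overlap of the diets in both tissues. Col4a2 had 0.24 ± 0.22 in muscle (adjusted p = 0.62) and 0.32 ± 0.32 in aorta (SE, adjusted p = 0.66), and the latter turned to -0.18 without experiment 3. Its aorta responses moved with the experiment in both strains, at -0.27, -0.06 and 1.48 in WT and -0.31, -0.08 and 1.17 in KO. The second Col4a2 probe gave 0.33 ± 0.22 in muscle and 0.68 ± 0.47 in aorta (SE). Col4a4, the partner of Col4a3, had 0.17 ± 0.24 in muscle and 0.14 ± 0.17 in aorta (SE), the former turning to -0.14 without experiment 2.

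The nidogens, which join the laminin and collagen networks, were likewise not called. In muscle Nid1 had chow levels of 4.65, 4.60 and 4.66 in WT and 5.05, 5.01 and 4.83 in KO. On HFD it had 5.26, 5.34 and 4.78 in WT and 5.23, 5.16 and 5.09 in KO. Over both strains the diets overlapped, since the KO chow arrays reached above the lowest WT HFD array. The response of Nid1 was 0.34 ± 0.15 in muscle (adjusted p = 0.32, above 0 in 6 of 6 pairs) and 0.29 ± 0.22 in aorta (SE, adjusted p = 0.57). That of Nid2 was 0.44 ± 0.16 in muscle (adjusted p = 0.27) and 0.56 ± 0.23 in aorta (SE, adjusted p = 0.32).

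Over the whole set, the response to HFD was above 0 for 10 of 10 members in aorta and for 8 of the 9 tested in muscle, against 51.1% and 49% of all probes. The members were chosen with earlier results of these data known and some moved together, so the counts here describe the set and do not test it. The median was 0.64 in aorta and 0.34 in muscle, against 0.01 and -0.01 over all probes. An unadjusted p under 0.05 was found for 6 members in aorta and 3 in muscle, against 15.1% and 16.4% of probes, and the adjusted threshold was passed by none in aorta and by Col15a1 in muscle. By strain in aorta such a p was found for 1 member in WT, Col15a1, and for 5 in KO (Col4a3, Col4a5, Col4a6, Col15a1 and Col18a1), against 5.77% and 11.3% of probes, and 0% of probes were called in either strain. These counts include experiment 1 and do not compare the strains. When the responses of the strains were compared directly, 0 members had an unadjusted p under 0.05 by limma, against 2.62% of probes. The list mean of fibroblast markers was higher on HFD in 6 of 6 pairs of each tissue, by 0.52 ± 0.49 in aorta and 1.26 ± 0.78 in muscle (SD, n = 6). In aorta adipocyte markers were lower on HFD in 6 of 6 pairs (-3.00 ± 0.90, SD), endothelial markers in 5 of 6 (-0.74 ± 0.85) and smooth muscle markers were higher in 6 of 6 (0.45 ± 0.30), as were Schwann cell markers (0.79 ± 0.45) and pericyte markers (0.38 ± 0.33). In muscle pericyte markers were lower in 6 of 6 (-0.57 ± 0.26), as were endothelial markers by a small amount (-0.10 ± 0.044), while macrophage markers were higher in 5 of 6 (1.41 ± 2.35). The fibroblast list ran from -0.03 to 3.80 in muscle and from 4.38 to 5.93 in aorta, with at least 6 of its 7 genes well above background on every array, and of the adipocyte genes Lep was well above background on 0 aorta arrays and 1 muscle array. The part of these lists in the members' responses was not tested.

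**Figure D2:**
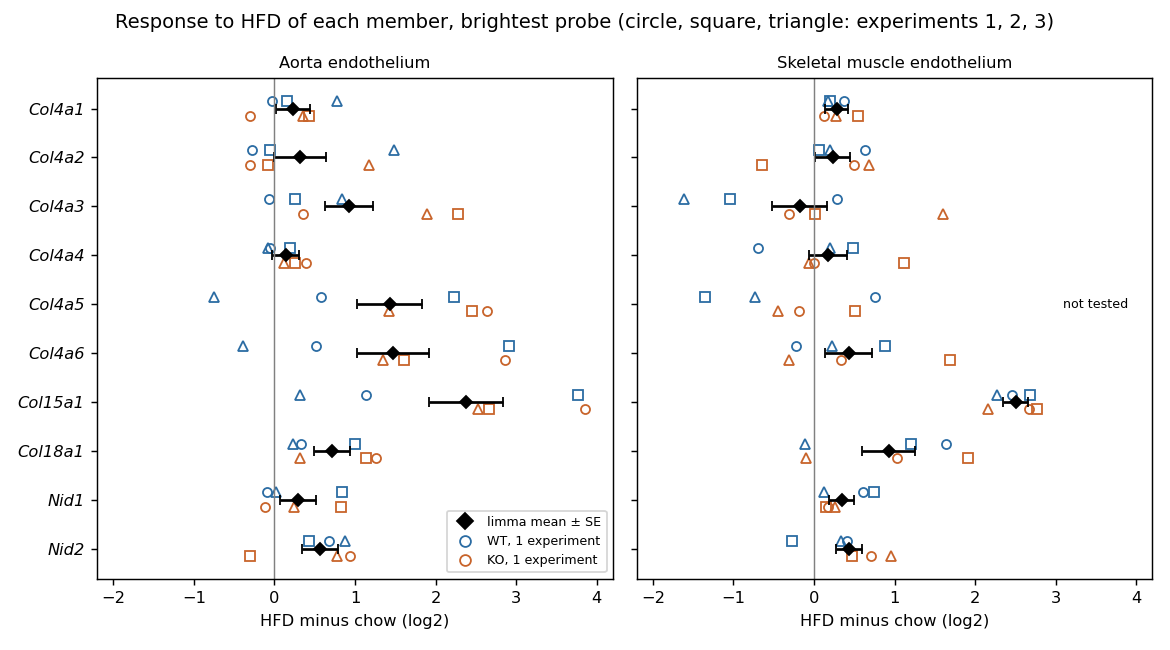
Response to HFD of each member in aorta (left) and muscle (right), as HFD minus chow on the log2 scale for each pair of arrays (open symbols, 3 WT and 3 KO pairs) with the limma mean of both strains and its SE (black diamonds). Col15a1 lies farthest from 0 in both tissues, at 2.38 in aorta and 2.50 in muscle, and Col4a5 has no limma value in muscle because it did not pass the filter on dim probes.

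**Figure D3:**
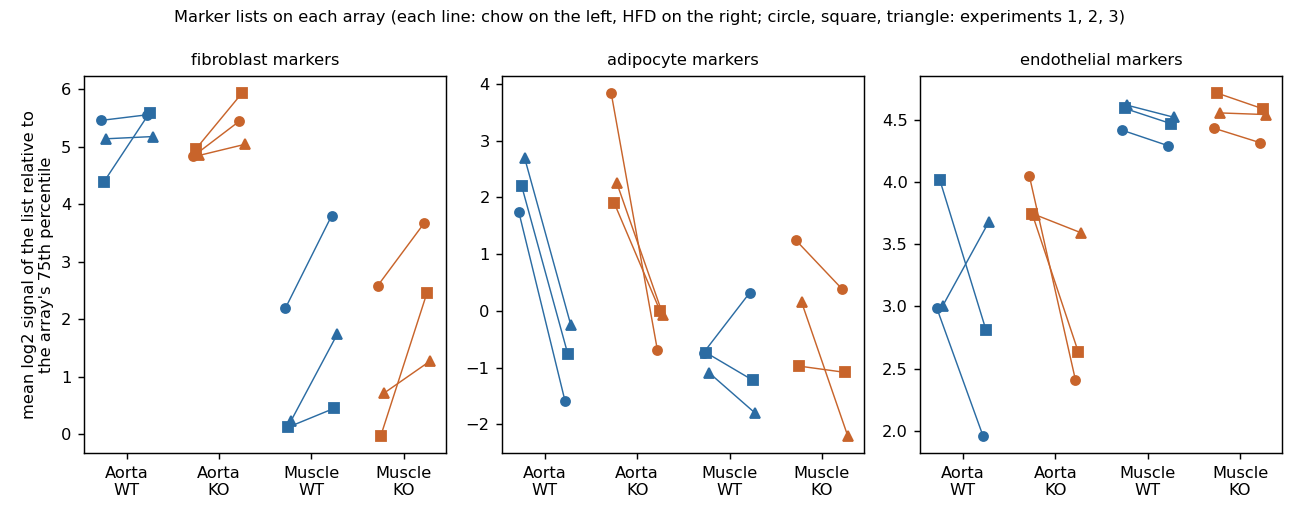
Mean log2 signal of the fibroblast, adipocyte and endothelial marker lists on each array, relative to the array's 75th percentile, each line joining the chow array (left end) to the HFD array (right end) of 1 strain and experiment. Fibroblast lines slope up in 6 of 6 pairs of both tissues and adipocyte lines slope down in 6 of 6 pairs of aorta.

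Between the arrays labelled KO and WT at equal diet no member differed past the adjusted threshold in either tissue. Col4a2 was higher on the KO arrays of aorta, with chow levels of 3.31, 2.95 and 2.88 against 2.02, 2.70 and 1.89 in WT. Its HFD levels were 3.01, 2.87 and 4.05 in KO against 1.74, 2.64 and 3.38 in WT. The groups overlapped on HFD, and on the second Col4a2 probe the KO chow array of experiment 2 was the lower (-2.06 against -1.82 in WT). On the brighter probe the difference was 0.78 ± 0.32 (SE, unadjusted p = 0.035, adjusted p = 1 by limma, with 0.0116% of probes called and 3.39% at an unadjusted p under 0.05), and 0.53 without experiment 1. Col15a1 had KO minus WT of -0.53 ± 0.45 in aorta and 0.07 ± 0.19 in muscle (SE), and -0.15 and 0.16 without experiment 1. With experiment 1 included, 4 of 10 members in aorta and 6 of 9 in muscle were above 0, against 52.8% and 53.8% of all probes. An unadjusted p under 0.05 was found for Col4a2 in aorta and for 0 of 9 members in muscle, where 0% of probes were called and 3.27% had such a p.

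The comparison of the tissues called far more probes than those of diets or strains, and the members split between aorta and muscle. Of the 10 members 7 were called in the comparison of aorta with muscle, 4 of them higher in aorta and 3 higher in muscle, in a comparison that called 28.2% of 27387 probes and 11.5% as higher in aorta. Among those called higher in aorta, Col4a5 passed the filter on dim probes through aorta alone. The median of all probes was -0.27, so that a member at that value lay in the middle of the array. Each slide held 1 tissue of 1 experiment, and the slide was therefore fitted as a random block. All tissue differences below are aorta minus muscle.

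On the probes brightest over both tissues Col4a5 had the largest difference, 5.22 ± 0.44 (SE). Col4a5 passed the filter on dim probes through its aorta arrays alone, so its call does not test the direction of the difference. Its levels ran from -3.46 to -0.10 with a median of -0.84 on the 12 aorta arrays and from -8.05 to -5.21 with a median of -6.47 on the 12 muscle arrays. The tissues did not overlap, which held in this direction for 2 members and 3.54% of probes. Since Col4a5 was well above background on only 2 of 12 muscle arrays, its muscle level is close to a bound, and the difference came to 3.62 with another background correction (normexp). It was 4.39, 5.56 and 5.71 in experiments 1, 2 and 3.

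For Col4a6 the 3 probes did not give 1 answer. The probe that is brightest over both tissues (A_52_P447196) had levels from -0.69 to 1.40 in aorta and from -0.64 to 1.46 in muscle, and a difference of -0.01 ± 0.36 (SE, adjusted p = 0.99). The probe that is brightest in aorta (A_52_P516409) had levels from 1.23 to 4.37 in aorta and from -7.53 to -2.44 in muscle, without overlap, and a difference of 7.62 ± 0.85 (SE, adjusted p = 3e-06). The third (A_51_P109326) had 4.27 ± 0.66 (SE), with 1 of 12 muscle arrays well above background, and passed the filter on dim probes through aorta alone. Thus A_52_P516409, well above background on 10 of 12 muscle arrays, was higher in aorta and A_52_P447196 was not. For A_51_P109326, as for Col4a5, the filter means that the value does not test the direction. Which transcripts each probe reads was not examined.

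Col4a1 and Col4a2, the chains of the common trimer, were both higher in muscle. Col4a1 ran from 4.67 to 5.55 with a median of 5.19 in aorta and from 5.80 to 6.57 with a median of 6.07 in muscle. On this probe it was the only member with every muscle array above every aorta array, an order found for 2.1% of probes. Its difference was -0.90 ± 0.15 (SE, adjusted p = 0.00022), with muscle the higher in 12 of 12 matched comparisons of 1 strain, diet and experiment. Col4a2 ran from 1.74 to 4.05 in aorta and from 3.72 to 4.67 in muscle, with a difference of -1.53 ± 0.28 (SE, adjusted p = 0.00051), muscle again being higher in 12 of 12. The other probes of these genes gave -1.10 and -1.97, both called, although their tissues overlapped.

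Col4a3 went the other way from Col4a1 and Col4a2, with levels from -4.10 to -1.49 in aorta and from -5.46 to -3.04 in muscle. Its difference was 1.36 ± 0.38 (SE, adjusted p = 0.011), higher in aorta in 11 of 12 comparisons, and it was not called without experiment 2 (1.30, adjusted p = 0.18) or without experiment 3 (1.05, adjusted p = 0.068). Col4a4, its head-to-head neighbour, ran from 1.07 to 2.08 in aorta and from 1.28 to 2.43 in muscle, with a difference of -0.03 ± 0.22 (SE, adjusted p = 0.93).

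The multiplexins were both higher in aorta. Col18a1 ran from 1.76 to 3.34 with a median of 2.80 in aorta and from -0.44 to 1.68 with a median of 0.54 in muscle, so that no array of 1 tissue reached the other. Its difference was 2.18 ± 0.30 (SE, adjusted p = 2.5e-05), a 4.52-fold higher level, and 1.79, 2.45 and 2.29 in experiments 1, 2 and 3. The second Col18a1 probe gave 2.15 ± 0.29 (SE, adjusted p = 2.7e-05), with a narrow overlap of the tissues. Col15a1 differed by 1.40 ± 0.39 (SE, adjusted p = 0.011), higher in aorta in 12 of 12 comparisons although the ranges overlapped, and was not called without experiment 1 (1.37, adjusted p = 0.077) or when its probes were averaged (1.16, adjusted p = 0.086). Its second probe gave 0.91 ± 0.70 (SE, adjusted p = 0.34).

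Of the nidogens, Nid2 was higher in muscle, with levels from -0.72 to 0.54 in aorta and from -0.30 to 1.32 in muscle. Its difference of -0.60 ± 0.22 (SE, adjusted p = 0.044) was lost in 5 of 10 alternatives, among them leaving out experiment 1 (-0.41, adjusted p = 0.34) or experiment 3 (-0.53, adjusted p = 0.16). Nid1 ran from 4.52 to 5.66 in aorta and from 4.60 to 5.34 in muscle, with a difference of 0.20 ± 0.18 (SE, adjusted p = 0.42).

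The markers of other cells also differed between the tissues. Fibroblast markers were higher on every aorta array (4.38 to 5.93) than on any muscle array (-0.03 to 3.80), skeletal muscle fibre markers were higher on every muscle array (0.33 to 3.21 against -4.56 to -2.08), and the endothelial list ran lower in aorta. Macrophage markers spread from -5.37 to -1.34 in aorta and from -7.11 to 0.60 in muscle. Their part in the members' tissue differences was not tested.

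**Figure D4:**
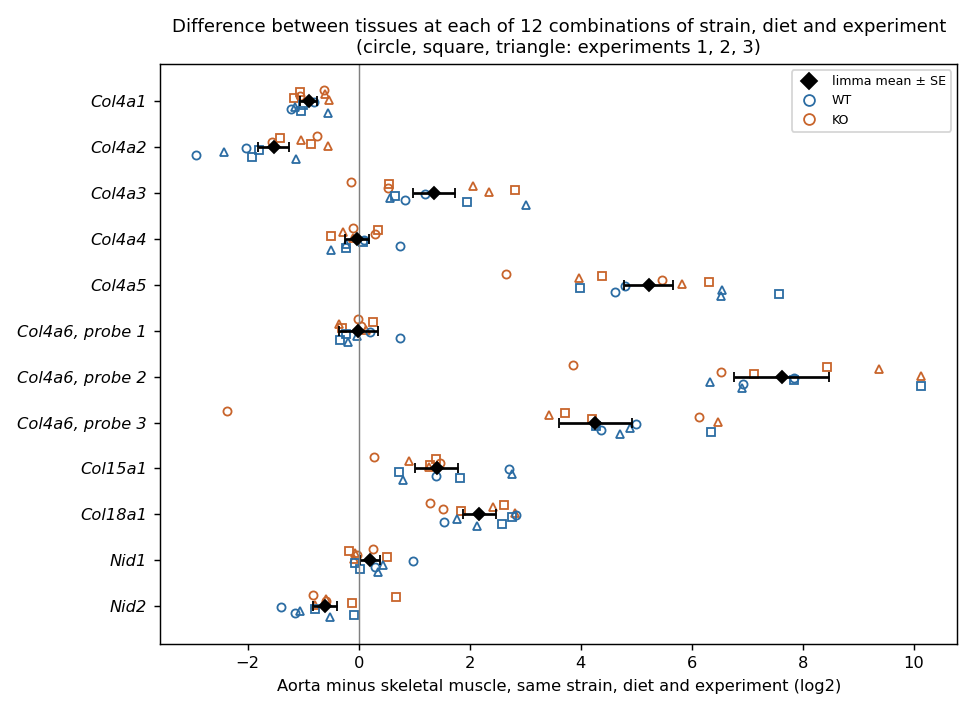
Aorta minus muscle of each member on the log2 scale at each of 12 combinations of strain, diet and experiment (open symbols), with the limma mean and its SE (black diamonds). Col4a6 is shown on its 3 probes, in the order of the text. Col4a5, Col18a1 and Col15a1 lie right of 0 at all 12 combinations and Col4a1 and Col4a2 left of 0 at all 12.

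Within a tissue the members fell into patterns that are given as a description over 12 arrays, which share slides, diets and depth of amplification. In aorta Col4a6 followed Col15a1 (Pearson r = 0.96), as did Col18a1 (r = 0.89) and Col4a5 (r = 0.88), while Col4a1 did not (r = 0.04). The neighbours Col4a1 and Col4a2 had r = 0.83 in aorta and r = -0.01 in muscle, and Col4a5 and Col4a6 had r = 0.81 in aorta. In muscle Col15a1 was followed by Col18a1 (r = 0.77) and Nid1 (r = 0.72). The genes of the whole array whose levels were most like Col15a1 were Gxylt2 (r = 0.98), Kdelr3, Aff2, B3gnt9 and Rad51b in aorta and Aplnr (r = 0.96), Papln, Ift122, Rtn1 and Ephb1 in muscle. Those most like Col4a1 were Atp1b2 (r = 0.91), Large2, Tmem204, Shkbp1 and Pfkl in aorta and Acot7 (r = 0.95), Slc25a26, Smyd2, Gch1 and Aqp7 in muscle. Each of these was picked as the most alike among all tested probes, over 12 arrays in 2 diets.

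Other genes of the basement membrane were followed as lists. On HFD in muscle 1 of 52 tested genes of the 5 lists was called, in a comparison that called 0.288% of all probes. It was Papln, which encodes the matrix protein papilin (2.04 ± 0.20, SE, adjusted p = 0.036). Its call was lost without any 1 experiment (adjusted p = 0.19 to 0.27). In muscle 49% of all probes had a response above 0 and in aorta 51.1%, against which the list counts are read. Of the other basement membrane proteins, the list that holds Papln, 7 of 10 tested were above 0 in muscle. Of the laminin chains 5 of 8 tested were above 0 in muscle, Lamb1 having the smallest p (1.41 ± 0.25, SE, adjusted p = 0.098). Of the collagen-modifying and secretion proteins 13 of 16 were above 0, with Colgalt2, a collagen galactosyltransferase, at 1.05 ± 0.18 (SE, adjusted p = 0.092). The receptors had 5 of 9 above 0 and the proteases and inhibitors 6 of 9, Timp1 at 1.34 ± 0.28 (SE, adjusted p = 0.12).

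On HFD in aorta no gene of these lists was called, in a comparison that called 0.0309% of all probes. The collagen-modifying and secretion proteins had 15 of 16 genes above 0 with a median of 0.33, against 0.01 for all probes, and Fkbp10, a collagen chaperone of the endoplasmic reticulum, at 0.91 ± 0.32 (SE, adjusted p = 0.27). The laminin chains had 6 of 9 above 0, the other basement membrane proteins 9 of 12, the receptors 4 of 11 and the proteases and inhibitors 7 of 10. Mmp2, a gelatinase that cleaves type IV collagen, had 1.14 ± 0.31 (SE, adjusted p = 0.22) and Timp4, an inhibitor of such enzymes, -1.50 ± 0.47 (SE, adjusted p = 0.25).

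Between the tissues many list genes were called in both directions, in a comparison that called 28.2% of all probes, 11.5% as higher in aorta. In muscle alone fewer genes were tested: 8 laminin chains, 10 other basement membrane proteins, 9 receptors and 9 proteases and inhibitors. Some genes of these lists may thus have passed the filter on dim probes through aorta alone. For such genes a call as higher in aorta does not test the direction, and the size depends on a muscle level near background. Of the 9 laminin chains tested 3 were called higher in aorta and 4 higher in muscle, with Lama2 at 2.60 ± 0.53 and Lama5, the chain of mature vascular basement membranes, at -1.75 ± 0.35 (SE). Of the other basement membrane proteins 3 of 12 were higher in aorta, led by Fbln1 (7.45 ± 0.84) and Smoc1 (7.13 ± 0.44), and 6 were higher in muscle, among them Pxdn, the peroxidasin that forms sulfilimine cross-links in type IV collagen (-1.37 ± 0.29). Of the collagen-modifying and secretion proteins 5 of 16 were higher in aorta, led by P3h3 (3.75), a prolyl hydroxylase, and 2 in muscle. Of the receptors 4 of 11 were higher in aorta, such as Ddr2 (2.94 ± 0.36), a collagen receptor, and 4 in muscle, such as Itga6 (-2.42 ± 0.41), an integrin that binds laminin. Of the proteases and inhibitors 4 of 10 were higher in aorta, such as Timp1 (5.46 ± 0.48) and Mmp2 (3.62 ± 0.45), and 1, Timp4, in muscle (-2.70 ± 0.35).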

How the data were processed

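The data are 24 single-colour Agilent Whole Mouse Genome arrays, 3 for each of 8 groups of tissue, strain and diet, grouped by the deposited labels, whose trial number was taken as the experiment. Per the file headers, the deposited intensities were made by the authors with Feature Extraction 10.5.1.1 (the submitters' processing notes name 9.1), which subtracted background and detrended each array without scaling arrays to each other. A deposited table by the authors holds log2 values equal to the log2 of these intensities plus a constant per array, set separately for each tissue. It served as an alternative within tissues.

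From the intensities, log2 values minus the 75th percentile of each array (2390 to 5938 in linear units) were computed, outlier spots were left out and spots of a probe averaged. Of 41174 probes, 27198 matched a gene symbol of the GRCm38.p6 gene table by accession. Tested probes had to be well above background on all arrays of some group (25865 in aorta, 25682 in muscle, 27387 over both) with limma 3.58.1 in R 4.3.3 (lmFit, eBayes) and Benjamini-Hochberg adjustment over all tested probes, called at 0.05. Within a strain, tissue and experiment the HFD array was paired with the chow array, as in the study's methods, which take the ratio within each experiment, and both lay on the same 1 of 6 slides. Deviations of same-numbered arrays from their group means correlated at 0.0083 to 0.46. Strains were compared without a block and tissues with the slide as a random block (consensus correlation 0.28). Slide and experiment coincide within a tissue, and experiment 1 was scanned in another session than experiments 2 and 3. The WT and KO pairs of an experiment, on the same slide, were fitted as independent pairs. Arrays have no read depth, and precision is limited by how many there were. The arrays of a group came from separate pools of mice per the study's methods.

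On simulated arrays with 200 probes changed by 4 on the log2 scale, 95% were recovered in the HFD comparison of aorta, 97.5% in that of muscle and 99% between tissues, but 53% and 44% in the comparison of the strains' responses in aorta and muscle. For single strains 82% (WT) and 75.5% (KO) were recovered in aorta, 77.5% and 76.5% in muscle. The simulated arrays had no slides or pairs. A change of 4 exceeds every mean response of a member to HFD, and recovery of smaller changes was not simulated. The members, the gene and marker lists and the tests were chosen with earlier results of these data known. All 10 members are named. Of each pathway list, genes past the threshold are named (up to 6 with the largest change), else the 2 with the smallest p, and the text gives some of these. Promoter windows are those of RefSeq, GRCm38.p6, the build of the gene table, which is not the array design's, so no probe was placed on it. The alternatives tried were the deposited table, normexp background correction (offset 50), quantile normalization, other filters on dim probes, leaving out each experiment, other blocks, the methods' t-test and the mean of a gene's probes. Figures were drawn with matplotlib 3.10.9.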

Additional observations from a re-analysis of the deposited data

How the results depend on the processing

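Of 115 differences of the members, 8 were called, and none of these 8 changed sign in any alternative tried. Of the others 37 changed sign at least once. The values reported with a sign that turned were the HFD response of Col4a5 in aorta of WT (-0.081 at the lowest), of Col4a2 in aorta (-0.18 to 0.63 when 1 replicate was left out) and of Col4a4 in muscle (-0.14 to 0.43), and 3 differences of Col15a1: KO minus WT of the response in muscle (-0.0053 to 0.15, and -0.31 as the mean of its probes), KO minus WT in muscle (-0.12 to 0.16, and -0.076 as the mean of its probes) and aorta minus muscle of the response (-0.43 to 0.21, and 0.040 as the mean of its probes). Between the tissues Col4a6 turned to 0.020 with normexp, 0.030 with quantile normalization, -0.13 to 0.065 without 1 replicate and 3.96 as the mean of its probes, and Col4a4 to 0.037 with quantile normalization and -0.17 to 0.096 without 1 replicate. Nid1 was called between the tissues only with quantile normalization (0.41, adjusted p = 0.042). Quantile normalization and the deposited table changed no other call of a member but that of Nid2.

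The count of members called on HFD in muscle, 1 for the mean of both strains, fell to 0 with no filter on dim probes and was 0 without any 1 replicate (range 0 to 0). For single strains in muscle it rose from 0 to 1, Col15a1, with normexp, with probes well above background on every array and with no replicate block (in KO also with the slide as the replicate block). Between the tissues it ran from 5 to 7 over the alternatives. Probes called in all moved more. With normexp they were 2 (aorta WT), 4 (aorta KO), 55 (aorta mean, from 8), 8 (muscle WT), 5 (muscle KO, from 1), 220 (muscle mean, from 74) and 14 (response, aorta minus muscle). With the filter on every array they were, in that order, 2, 5, 41, 29, 2, 247 and 25, and 0 for KO minus WT in aorta (from 3). With no replicate block they were 4, 7 and 50 in aorta and 1 and 4 in muscle WT and KO. With the slide as the replicate block they were 2, 4 and 57 in aorta, 4 in muscle KO, 274 in the muscle mean and 1 for KO minus WT in aorta. With no filter they were 5 in the aorta mean, 1 in the muscle mean and 1 for KO minus WT in aorta. With quantile normalization they were 1 for KO minus WT in aorta and 6 for the response, aorta minus muscle. The methods' t-test with Benjamini-Hochberg adjustment called 0 in muscle KO, and without adjustment it gave 1736 probes and 2 members in aorta KO, against 2910 and 5 by limma, and 1287 probes in muscle KO, against 2181. Without 1 replicate the counts were 0 for the aorta mean, muscle KO and the muscle mean, 0 to 1 for KO minus WT in aorta, 0 to 2 for that in muscle (2 without replicate 1) and 3027 to 7186 between the tissues (4763 without replicate 1, 3027 without replicate 2), against 7715. Between the tissues the replicate block of strain, diet and experiment called 15645 and no slide block 12630. With 3 arrays a group, and Col4a5 and part of the Col4a6 and Col15a1 probes near background in muscle, these data limit which modest differences of the members can be called. The causes of these shifts were not tested, beyond the fewer arrays left when a replicate is dropped.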
